A study of Mus musculus with 30 samples.

Results

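Abcb10-null and wildtype (WT) MEL cells were compared after 2 days in 1.5% dimethyl sulfoxide (DMSO), in 10 of the 30 total RNA-seq libraries of the series, 5 labelled as biological replicates for each genotype. MEL cells are a mouse erythroleukemia line, kept here as the DS19 clone, that stays at an early red cell precursor stage until DMSO sets off hemoglobin production. The Abcb10-null cells were a single clone obtained with lentiviral CRISPR/Cas9 directed at exon 1 of Abcb10 and sorted for GFP, so that a difference of genotype and a difference of that clone from its parent line cannot be told apart. Both genotypes at day 2 carried the same DMSO exposure, and the 10 libraries at day 0 came from untreated cells of the same lines. Nothing in the labels says whether the replicates were separate cultures, and the p-values measure only the spread among these libraries.

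Abcb10 is an ATP-binding cassette transporter of the mitochondrial inner membrane that erythroid cells induce as they mature and that is needed for heme production. Heme is made in a chain of enzymes that starts and ends in mitochondria and passes through the cytosol in between. When heme is short, the kinase Hri (gene Eif2ak1) phosphorylates the translation factor eIF2, which slows protein synthesis while favoring translation of Atf4, and Atf4 with its partner Chop (gene Ddit3) then turns on genes of amino acid supply and stress. Shortage of amino acids such as arginine also leads to eIF2 phosphorylation, and which route applied was not tested here. Transcript levels, which are what was measured here, do not show eIF2 phosphorylation or protein amounts.

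Transcript levels differed widely between the genotypes at day 2. Of 13053 genes with enough counts to test, 1944 (14.9%) were higher and 2207 (16.9%) were lower in Abcb10-null cells at an adjusted p under 0.05, and these shares are the background against which each gene group is read. In 1088 of the higher and 895 of the lower genes the libraries of the genotypes did not overlap. Below, a gene that rose or fell was higher or lower in Abcb10-null than in WT libraries at day 2. Levels written as from and to also run from WT to Abcb10-null, and neither wording describes a change over days. The groups that rose were the Atf4 and Chop regulators, enzymes of serine and one-carbon metabolism, aminoacyl-tRNA synthetases, ribosome assembly factors, histones and interferon-stimulated genes, and those with the largest shares that fell, lists of cell type markers aside, were heme enzymes, erythroid transcription factors and red cell membrane genes.

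**Figure D1:**
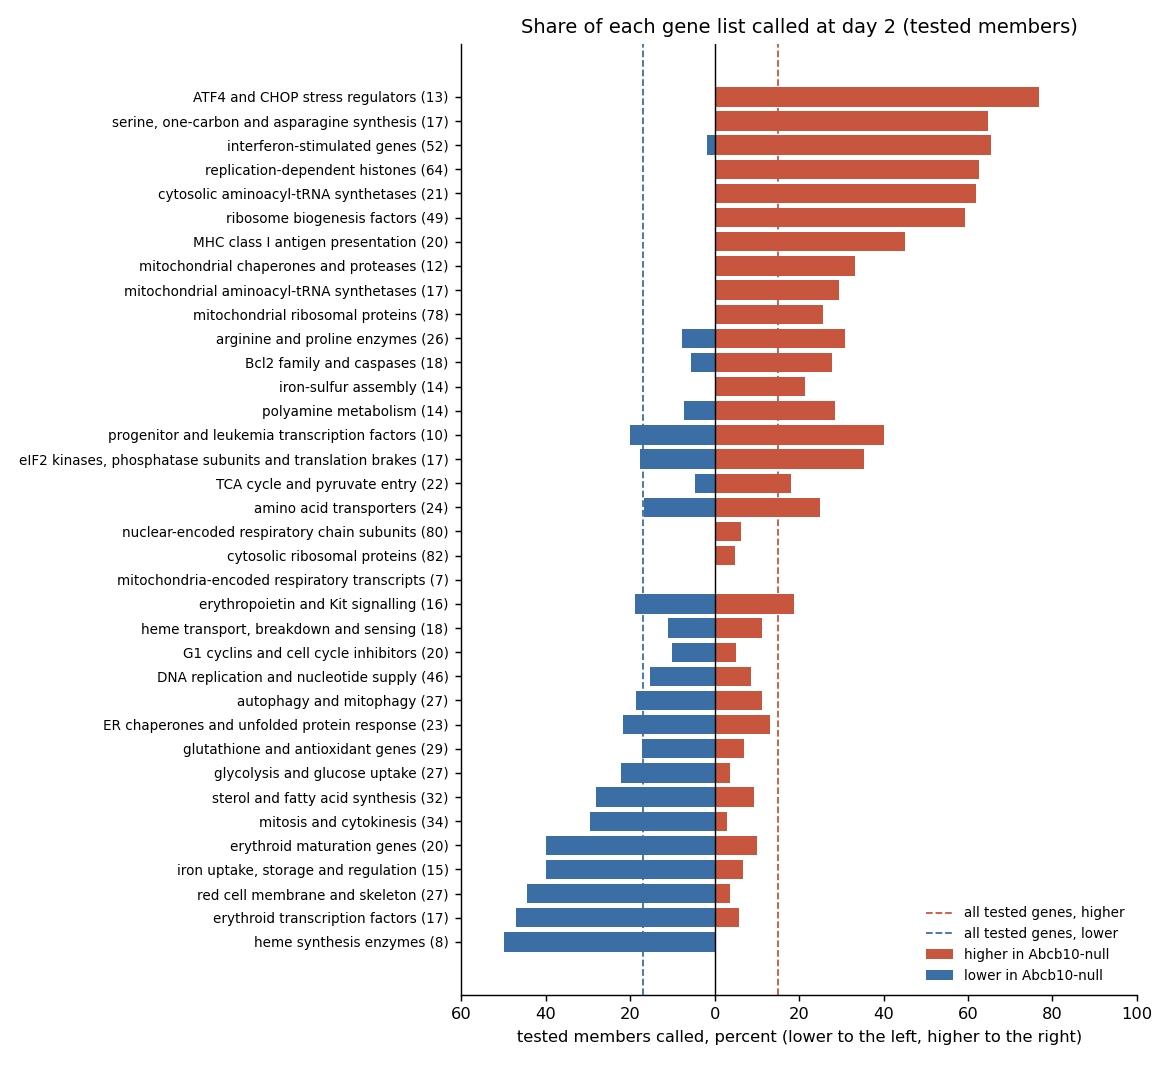
Each bar gives the percent of a list's tested members (number in brackets) called higher (right) or lower (left) in Abcb10-null cells at day 2, with 5 libraries a genotype, and dashed lines give the same percents over all 13053 tested genes. Lists of cell type markers are not drawn, and among those drawn the stress regulators had the largest higher share (76.9%) and the heme synthesis enzymes the largest lower share (50%).

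Some libraries stood apart from others of their group, and the results are given with this in view. Total counts were 13829992 to 16553112 in WT and 17301441 to 19616273 in Abcb10-null libraries. WT replicates 1 and 2 resembled each other more than the other 3 WT libraries (chi-square per degree of freedom of 6.94, against 17.3 to 90.2 for the other WT pairs) and were high in long GC-rich transcripts. Over 615 tested genes with transcripts over 4000 bases and over 55% GC, the median deviation from the mean of the 10 libraries, on the log2 scale, was 0.70 and 0.73 in these 2 libraries, 0.014 to 0.26 in the other WT libraries, -0.010 in Abcb10-null replicate 2, and -0.62 to -0.24 in the other 4 Abcb10-null libraries. Genes in the fifth of lowest GC content were called higher in 25.9% and lower in 11.3% of cases, against 4.48% and 30.8% in the fifth of highest GC content. The part of base composition in the genotype differences was not tested beyond refitting with a correction for it. With a per-library offset for GC content and transcript length, 1913 genes were higher and 1788 lower, and 2792 of the 4151 calls were shared. Without WT replicates 1 and 2, with 3 WT libraries left, 359 were higher (2.66% of genes tested) and 379 lower (2.81%), and 715 of these were among the 4151. List counts given without this pair are to be read against these smaller shares. Abcb10-null replicate 2 lay near WT for many stress genes, and without it 2578 genes were higher (19.5%) and 2779 lower (21.1%). The higher count fell to 1158 without Abcb10-null replicate 1 and 1178 without replicate 4, and the lower count to 1456 when WT replicate 1 was dropped and 1426 when replicate 2 was.

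The cells read as erythroid in both genotypes. The 8 erythroid defining markers in the table were tested, of which 4 fell (Klf1, Tfrc, Ermap and Hemgn) and 0 rose, and Gata1, the master erythroid transcription factor, stood, in counts scaled to library size (CPM), at 289 ± 25.3 CPM in WT against 355 ± 66.98 CPM in Abcb10-null libraries (SD, n = 5, log2 fold change 0.19, adjusted p = 0.281). Summed levels of the 14 myeloid and macrophage markers were 9.04 to 16.9 CPM in WT against 6.73 to 23.1 CPM in Abcb10-null libraries, S100a8 and S100a9 were at 0 throughout, and of the 3 members tested Fcgr3, an immunoglobulin receptor, rose (1.20, adjusted p = 0.0294). The 10 mast cell and basophil markers summed to 1.48 to 4.47 CPM in WT against 2.39 to 5.37 CPM in Abcb10-null libraries, with Tpsb2 and Tpsab1 at 0. Of the 10 lymphoid markers Ptprc, the pan-leukocyte phosphatase CD45, was the member that passed the count filter (log2 fold change 0.82, adjusted p = 0.004), and Nkg7 was at 0. Of the 10 megakaryocyte markers 7 were tested, and Itga2b and Pf4 were abundant in both genotypes. Vwf, Gp1ba and Gp9 were lower (log2 fold changes -2.43, -2.26 and -1.57), Gp1ba at a low level (0.96 CPM in WT against 0.21 CPM in Abcb10-null). The other 4 were not called, Treml1 (1.39), Itgb3 (0.81), Pf4 (0.40) and Itga2b (-0.30).

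Abcb10 itself (ENSMUSG00000031974, chromosome 8, 123952459 to 123983122, minus strand, GRCm38) was lower in every Abcb10-null library. Its level was 629, 638, 475, 541 and 503 CPM in WT replicates 1 to 5 and 169, 171, 320.2, 191 and 185 CPM in Abcb10-null replicates 1 to 5. The groups did not overlap, and the mean was 207 ± 63.9 CPM in Abcb10-null against 557 ± 73.7 CPM in WT libraries (SD, n = 5). The log2 fold change was -1.54 ± 0.19 (SE here and below), with an adjusted p of 0.000551. Abcb10-null replicate 3 was the highest of its group, far from the other 4 libraries. The counts cover the whole gene, so the remaining transcripts say nothing of whether they can encode protein, and 10.3% of the exonic length is overlapped on the other strand by Gm45890. At day 0 the difference was smaller (log2 fold change -0.68), with WT cells at 122 ± 6.61 CPM before DMSO, and the change in the difference from day 0 to day 2 passed the test (log2 -0.80, adjusted p = 0.00622).

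Heme synthesis enzymes were reduced in part. Of 8 tested enzymes, 4 fell, 0 rose and 4 did not pass the test, with a median log2 fold change of -0.37 against -0.00218 over all tested genes. Without WT replicates 1 and 2, 2 were called lower and the median was -0.38. In bulk RNA fewer maturing cells and less RNA per cell cannot be told apart. Transcripts for Ppox, protoporphyrinogen oxidase, the enzyme before the last step, fell the most, from 102, 109, 77.5, 74.8 and 106 CPM in WT to 35.7, 43.6, 31.02, 34.05 and 60.4 CPM in Abcb10-null (log2 fold change -1.30 ± 0.20, adjusted p = 0.00198). The genotypes did not overlap. Fech, ferrochelatase, which inserts iron into protoporphyrin, was at 193, 207, 226, 192 and 211 CPM in WT against 157, 157, 189, 163 and 181 CPM in Abcb10-null (log2 fold change -0.39 ± 0.11, adjusted p = 0.0157). Fech also separated the genotypes without overlap, by less than Ppox did. Urod, uroporphyrinogen decarboxylase, was lower by a small margin (log2 fold change -0.34 ± 0.11, adjusted p = 0.0374), a call that was lost in 8 of the 10 fits that left out a library (adjusted p 0.0521 to 0.0896), namely those that dropped any WT library or Abcb10-null replicate 1, 2 or 4.

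Alad, which joins the precursor molecules in the cytosol, had a log2 fold change of -0.59 (adjusted p = 0.0606), with Abcb10-null replicate 3 at 559 CPM inside the WT range and the other 4 libraries at 239 to 396 CPM below it. Alad was called with DESeq2 (adjusted p = 0.0325) and without Abcb10-null replicate 3. Cpox (-0.36, adjusted p = 0.107), Uros (0.072, adjusted p = 0.821) and Alas1, the housekeeping form of the enzyme of the entry step (-0.017, adjusted p = 0.951), did not pass the test either, and for Alas1 and Uros the sign of the difference changed between processing alternatives. Cpox was called under the GC offset (-0.50, adjusted p = 0.0461). Before DMSO Ppox and Fech did not pass the test (log2 fold changes 0.19 and 0.095), and the change from day 0 to day 2 passed the test for Ppox (log2 -1.45, adjusted p = 0.000376) and Fech (-0.43, adjusted p = 0.0095). Ppox shares 17.5% of its exonic length with B4galt3 on the other strand.

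Iron supply genes fell in part as well. Of 15 tested genes of iron uptake, storage and regulation, 6 fell and 1 rose. Tfrc, the transferrin receptor, was at 1547 ± 384 CPM in WT against 913 ± 235 CPM in Abcb10-null libraries (log2 fold change -0.88, adjusted p = 0.0114). The endosomal iron reductase Steap3 (-1.13), the mitochondrial iron importer mitoferrin-1 (Slc25a37, -0.93), the endosomal iron transporter Slc11a2 (-0.37), the iron chaperone Pcbp2 (-0.61) and ferritin heavy chain (Fth1, -0.37) also fell. Ncoa4, which carries ferritin to the lysosome, rose (0.58, adjusted p = 0.0491). When WT replicates 1 and 2 were left out, 0 of the 15 genes were called, the median being -0.21 in place of -0.24. In that fit 2.66% of all genes were called higher and 2.81% lower. Of 18 tested genes of heme transport, breakdown and sensing, 2 rose and 2 fell (11.1% each, below the 14.9% and 16.9% of all genes). Eif2ak1, the heme-sensing eIF2 kinase Hri, was the largest of these, from 52.5, 52.4, 33.9, 32.3 and 44.96 CPM in WT to 23.3, 26.7, 20.7, 17.9 and 24.7 CPM in Abcb10-null (log2 fold change -1.05 ± 0.19, adjusted p = 0.00328), with no overlap. Clpx, a mitochondrial unfoldase, rose by 0.29 on the log2 scale, while Hmox1, heme oxygenase, did not pass the test (0.55, adjusted p = 0.175). Of 14 iron-sulfur assembly genes 3 rose (21.4%, near the 14.9% of all genes) and 0 fell, with a list median of 0.083. Those that rose were Nfu1 (0.89), Lyrm4 (0.73) and the cochaperone Hscb (0.75). Hscb lost its call when WT replicate 1 or 2, or replicate 1 or 4 of Abcb10-null, was left out (adjusted p 0.058 to 0.0781). Without the pair of WT libraries 0 heme transport genes rose and 1 fell, and 0 iron-sulfur genes rose. Among the iron supply genes 2 fell when WT replicate 1 was left out, and 3 when WT replicate 2 or Abcb10-null replicate 1 or 4 was.

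Erythroid regulators and structural genes were more often lower than higher. Of 17 erythroid transcription factors 8 fell and 1 rose. Klf1, a factor that turns on globin and many red cell genes, was at 276, 270.2, 306, 338 and 292 CPM in WT against 155, 253, 157, 133 and 199 CPM in Abcb10-null with no overlap (log2 fold change -0.82 ± 0.16, adjusted p = 0.00489). At day 0 the log2 fold change of Klf1 was 0.010 (adjusted p = 0.92). E2f4, which controls the cell cycle of erythroid precursors, fell from 38.3, 36.2, 21.7, 23.01 and 24.4 CPM to 11.9, 15.7, 9.42, 8.59 and 13.4 CPM (log2 fold change -1.40 ± 0.23, adjusted p = 0.00273). Lmo2, a bridging protein of the erythroid DNA-binding complex, was the member that was higher, at 118, 101.2, 69.8, 104 and 88.9 CPM in Abcb10-null against 47.9, 45.2, 66.1, 66.03 and 62.1 CPM in WT (log2 fold change 0.65 ± 0.15, adjusted p = 0.00782). Its mean was lower at day 2 than at day 0 in both genotypes, at 57.5 against 199 CPM in WT and 96.4 against 250 CPM in Abcb10-null. Gata1, Tal1 (-0.066) and Nfe2 (-0.14) did not pass the test. The GC offset removed several of the falls: Zfpm1 went from -1.12 to 0.052 and Foxo3 from -0.60 to 0.017, the list's median from -0.34 to 0.051, and 4 members were lower and 3 higher. Without WT replicates 1 and 2 2 members were lower (median -0.065). Klf1 and E2f4 were called under the offset too (-0.64 and -1.30).

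Of 27 red cell membrane and skeleton genes 12 fell and 1 rose, and of 20 other erythroid maturation genes 8 fell and 2 rose. Kel, which carries the Kell antigen, was at 151, 149, 107, 102 and 121 CPM in WT against 42.02, 49.7, 52.2, 39.4 and 69.4 CPM in Abcb10-null (log2 fold change -1.43 ± 0.19, adjusted p = 0.0008). Ank1, the ankyrin that ties the skeleton to the membrane, fell from 463, 451, 142, 155 and 173 CPM to 46.6, 81.96, 69.4, 39.5 and 65.7 CPM (log2 fold change -2.32 ± 0.38, adjusted p = 0.0026). Neither overlapped between genotypes, but WT replicates 1 and 2 exceeded the other WT libraries in Ank1 by a wide margin, and without them its log2 fold change was -1.44 (adjusted p = 0.0057). The spectrin Sptb (-1.54), the membrane protein Epb42 (-0.91) and Rhd (-0.82) were lower, and Add3, an adducin, was higher (1.67). Under the GC offset 11 of the 27 were lower, and Sptb, at -0.32, was not called. Among genes of the maturation list Car1, carbonic anhydrase 1, rose from 196, 214, 475, 404 and 406 CPM to 989, 1347, 589, 1027 and 1301 CPM (log2 fold change 1.55 ± 0.27, adjusted p = 0.003). Car1 was nonetheless lower at day 2 than at day 0 in both genotypes. Its mean was 339 against 1498 CPM in WT and 1051 against 1815 CPM in Abcb10-null. Ranbp10, a tubulin-binding protein, fell from 56.6, 57.7, 30.7, 25.4 and 38.4 CPM to 9.67, 17.8, 13.4, 8.47 and 13.5 CPM (log2 fold change -1.85 ± 0.28, adjusted p = 0.00178), and Tmcc2 fell by a log2 fold change of -0.86 (adjusted p = 0.00273). The ubiquitin enzymes Trim58 (-2.32), Ube2o (-1.70) and Trim10 (-0.74) were lower. Without WT replicates 1 and 2 5 membrane genes (median -0.22, from -0.47) and 5 maturation genes (median -0.17, from -0.19) were lower, where 2.81% of all genes were. Without Abcb10-null replicate 1 or 4 the membrane genes called lower were 7.

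**Figure D2:**
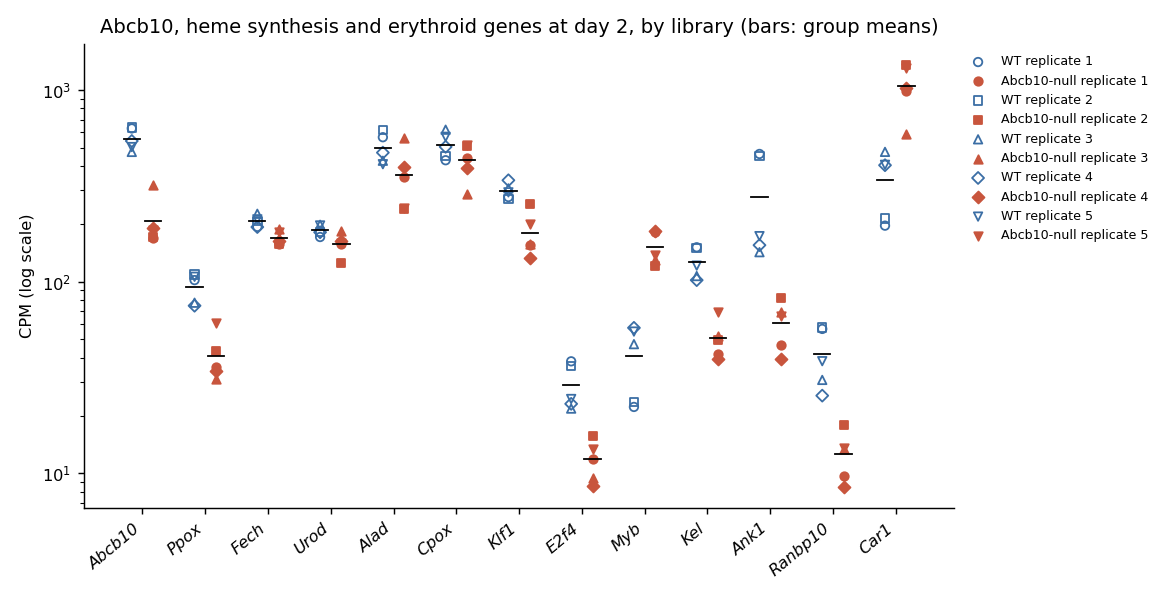
Transcript levels in CPM on a log scale for Abcb10, heme synthesis enzymes and erythroid genes in each of the 5 WT (open blue) and 5 Abcb10-null (filled red) day 2 libraries, the marker shape giving the replicate and the bar the group mean. Abcb10, Ppox, Klf1, Kel and Ank1 lie lower without overlap, Myb and Car1 lie higher without overlap, and Alad and Cpox overlap.

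Some progenitor factors were higher. Of 10 tested progenitor and leukemia transcription factors 4 rose and 2 fell. Myb, which keeps precursors dividing and is shut off as they mature, was at 22.2, 23.5, 47.1, 57.3 and 54.8 CPM in WT against 182, 120.4, 130.04, 184 and 138 CPM in Abcb10-null (log2 fold change 1.79 ± 0.25, adjusted p = 0.00107). All Abcb10-null libraries were above all WT libraries. The Friend virus target Spi1 (0.89), Meis1 (0.66) and Fli1 (0.64) also rose, and Runx1 (-1.06) and Etv6 (-0.92) fell. Myb was also higher at day 0 (0.61), and the difference grew by day 2 (log2 1.22, adjusted p = 0.00397). Of 16 genes of erythropoietin and Kit signalling 3 rose and 3 fell (18.8% each, near the 14.9% and 16.9% of all genes). The feedback inhibitors Socs3 (-1.43, adjusted p = 0.00198) and Cish (-1.23) and the ubiquitin ligase Cbl (-0.95) fell, the feedback inhibitor Socs1 (1.48), the survival kinase Pim1 (1.37) and the adaptor Gab2 (0.47) rose, and Epor, the erythropoietin receptor, did not pass the test (-0.21, adjusted p = 0.302). With WT replicates 1 and 2 left out, 1 progenitor factor was higher and 0 lower, and 0 signalling genes were higher and 1 lower.

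The Atf4 and Chop regulators rose in Abcb10-null cells, in 4 of its 5 libraries. Of 13 tested regulators 10 rose, 0 fell and 3 did not pass the test, with a median log2 fold change of 1.91. Trib3, a pseudokinase induced by Atf4 and Chop (ENSMUSG00000032715, chromosome 2, 152337422 to 152344032, minus strand), was at 24.2, 24.1, 38.1, 48.4 and 50 CPM in WT against 759, 23.9, 991, 968 and 243 CPM in Abcb10-null (log2 fold change 3.91 ± 0.70, adjusted p = 0.00324). Ddit3, which encodes Chop (ENSMUSG00000025408, chromosome 10, 127290774 to 127296288, plus strand), was at 42.5, 42.3, 53.7, 48.2 and 61.5 CPM in WT against 525, 30.3, 510.2, 519 and 220.2 CPM in Abcb10-null (log2 fold change 2.75 ± 0.53, adjusted p = 0.00421). Abcb10-null replicate 2 lay below the WT range for both genes, by very little for Trib3, and replicate 5 lay between it and the other 3. Atf4 itself was at 204, 191, 230.1, 292 and 234 CPM in WT against 606, 199.7, 628, 649 and 392 CPM in Abcb10-null, with replicate 2 inside the WT range (log2 fold change 1.00 ± 0.26, adjusted p = 0.012).

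The same pattern was seen in the effectors. Atf3, a stress-induced repressor (ENSMUSG00000026628, chromosome 1, 191170296 to 191218039, minus strand), was at 4.72, 5.31, 4.40, 2.999 and 3.82 CPM in WT against 89.2, 1.74, 53.7, 88.2 and 10.8 CPM in Abcb10-null (log2 fold change 3.39 ± 0.74, adjusted p = 0.00656). Chac1, which degrades glutathione (ENSMUSG00000027313, chromosome 2, 119351229 to 119354381, plus strand), was at 5.30, 4.85, 4.13, 6.73 and 5.76 CPM in WT against 75.1, 6.65, 69.8, 75.5 and 44.2 CPM in Abcb10-null (log2 fold change 3.23 ± 0.48, adjusted p = 0.00155). Nupr1, a stress-responsive chromatin protein, was at 50.8, 44.04, 62.4, 56.7 and 64.8 CPM in WT against 479, 56.3, 362, 376 and 205 CPM in Abcb10-null (log2 fold change 2.30 ± 0.40, adjusted p = 0.00306). Cebpg, an Atf4 partner, was the single regulator above all WT libraries in replicate 2 too, at 388, 104, 228, 332 and 181 CPM in Abcb10-null against 52.6, 52.2, 81.1, 72.3 and 76.4 CPM in WT (log2 fold change 1.78 ± 0.28, adjusted p = 0.00217). Jdp2 (1.91), the secreted stress factor Gdf15 (2.09) and Cebpb (1.09) rose. Atf5 (0.60, adjusted p = 0.0569), Sesn2 (1.02, adjusted p = 0.0621) and Ddit4 (0.53, adjusted p = 0.0588) did not pass the test but were called with DESeq2 (adjusted p = 0.0289, 0.0225 and 0.0423). Gdf15 lost its call in 5 of the 10 fits that left out a library (WT replicate 2 or 4, Abcb10-null replicate 1, 3 or 4, adjusted p 0.0538 to 0.0651) and Cebpb in 7 (WT replicate 1, 2, 4 or 5, Abcb10-null replicate 1, 3 or 4, adjusted p 0.0581 to 0.119).

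Counted over the list, Abcb10-null replicates 1, 3 and 4 each exceeded every WT library in 13 of 13 regulators, replicate 5 in 12 and replicate 2 in 1, with replicate 2 below every WT library in 6. Without replicate 2 all 13 tested regulators were called higher, with a median of 2.13. Without WT replicates 1 and 2 5 of the 13 were called higher, where 2.66% of all genes were, and the median was 1.67. Among those not called in that fit were Atf4 (0.89, adjusted p = 0.0933), Ddit3 (2.64, adjusted p = 0.0502) and Atf3 (3.62, adjusted p = 0.0546). Under the GC offset 13 were called. Before DMSO the list was not raised: 1 of 13 was higher and 6 were lower in Abcb10-null cells, with Trib3 at -0.60, Ddit3 at -0.38 and Atf4 at -0.48 on the log2 scale. The change in the genotype difference from day 0 to day 2 was 4.55 for Trib3 (adjusted p = 0.000305), 3.18 for Ddit3 (adjusted p = 0.000711), 3.57 for Chac1 (adjusted p = 0.000163) and 1.52 for Atf4 (adjusted p = 0.000987).

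**Figure D3:**
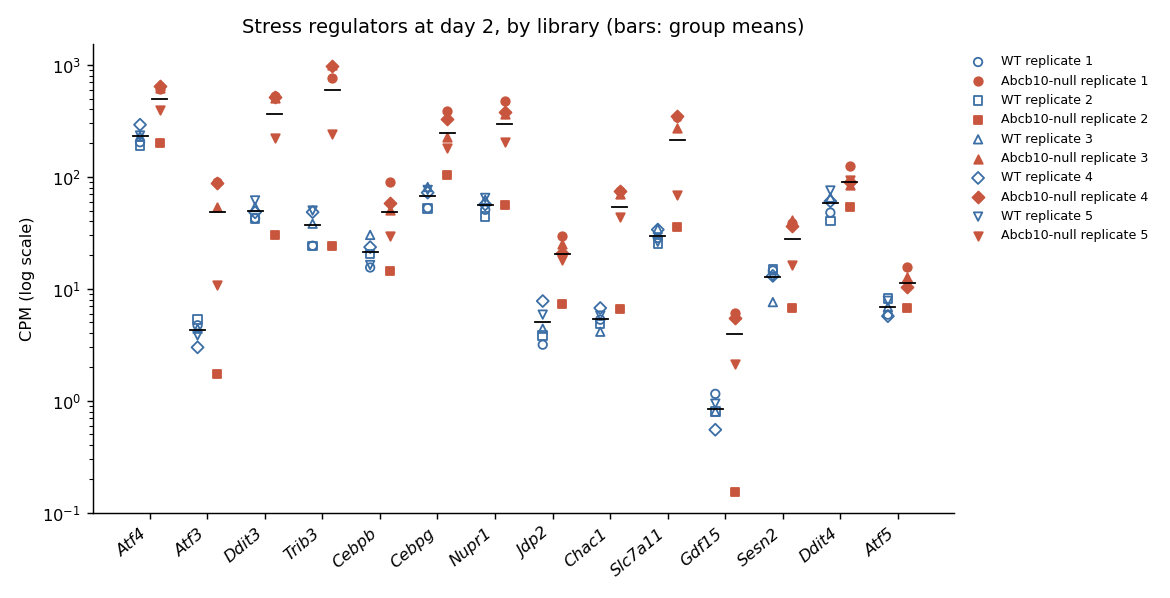
Transcript levels in CPM on a log scale for the stress regulators and the cystine transporter gene Slc7a11 in each day 2 library, WT open blue and Abcb10-null filled red, marker shape giving the replicate and bars the group means (n = 5). Abcb10-null replicates 1, 3 and 4 lie well above WT for Trib3 (759 to 991 CPM), replicate 5 lies lower (243 CPM) and replicate 2 lies level with the lowest WT library (23.9 CPM).

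Promoters of these genes are shown because the DNA element to which Atf4 dimers bind, the CARE, has a known core, searched here as TGATGNAA on both strands. The core was found in the windows from 250 bases before to 50 after the start of 5 of 13 tested stress regulators and 5 of 13 cytosolic aminoacyl-tRNA synthetases with a window, against 61 of 1470 genes called higher (4.15%), 35 of 1474 called lower (2.37%), 2.62% of the 9038 tested genes with a window and 3.97% of all 32851 windows in the table. The 250 bases before the RefSeq start (GRCm38.p6) of the stress regulators with the largest rises and a match upstream of the start are Atf3 (chr1:191183334-191183583, minus strand) and Chac1 (chr2:119350992-119351241, plus strand), given 5′ to 3′ on the gene's strand with the core in capitals, read on the opposite strand in both. The core lies 110 to 103 bases before the start in Atf3 and 193 to 186 in Chac1. Trib3, which had the largest rise, and Ddit3, Atf4, Cebpg and Cebpb had no match before the start in their windows. A match is a stretch of letters and was not tested for binding.
Atf3: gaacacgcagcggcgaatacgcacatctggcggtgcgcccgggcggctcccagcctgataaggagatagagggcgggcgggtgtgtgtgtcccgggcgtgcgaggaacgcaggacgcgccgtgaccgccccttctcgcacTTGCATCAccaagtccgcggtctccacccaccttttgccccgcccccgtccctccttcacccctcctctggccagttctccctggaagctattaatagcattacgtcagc
Chac1: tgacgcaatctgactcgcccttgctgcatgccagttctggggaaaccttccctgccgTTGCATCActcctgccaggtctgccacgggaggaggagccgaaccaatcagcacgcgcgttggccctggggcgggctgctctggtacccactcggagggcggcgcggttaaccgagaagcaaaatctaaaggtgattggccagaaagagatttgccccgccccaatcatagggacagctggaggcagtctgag

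Genes of amino acid supply rose too. Of 17 tested genes of serine, one-carbon and asparagine synthesis 11 rose and 0 fell (median 0.75), with 2 called and a median of 0.66 without WT replicates 1 and 2, and 7 called without Abcb10-null replicate 1 or 4. Psph, the last enzyme of serine synthesis, was at 36.2, 38.9, 52.1, 57.7 and 46.2 CPM in WT against 164, 67.8, 103, 179 and 81.2 CPM in Abcb10-null (log2 fold change 1.26 ± 0.24, adjusted p = 0.00425). Slc25a32, the mitochondrial folate carrier, was at 48.2, 46.04, 43.1, 44.2 and 34.6 CPM in WT against 124, 66.1, 101.1, 103 and 63.1 CPM in Abcb10-null (log2 fold change 0.97 ± 0.18, adjusted p = 0.00415). Neither gene overlapped between genotypes, Abcb10-null replicates 2 and 5 being the lowest of their group. Over the list 3 of the 11 called genes separated the genotypes, and Abcb10-null replicate 2 exceeded every WT library in 7 of the 17. Cth, which makes cysteine from cystathionine (2.44), the mitochondrial folate enzymes Aldh1l2 (2.29) and Mthfd2 (1.77), the alanine transaminase Gpt2 (1.66) and asparagine synthetase Asns (0.89) were higher. Phgdh, the first enzyme of serine synthesis, did not pass the test (0.50, adjusted p = 0.0904). Of 26 arginine and proline enzymes 8 rose and 2 fell, the rises including the proline enzymes Aldh18a1 (1.23) and Pycr1 (1.13) and the aminoacylase Acy1 (0.73), the falls being the collagen prolyl hydroxylase subunits P4ha1 (-0.81) and P4ha2 (-0.93). Without WT replicates 1 and 2, which lay below the other 3 WT libraries in 14 of the 26, 0 rose and 0 fell, and 5, 5 and 4 rose when WT replicate 2, Abcb10-null replicate 1 and Abcb10-null replicate 4 were dropped in turn. Of 14 polyamine genes 4 rose, among them Azin1 (0.84) and Mtap (0.82), and Smox fell (-0.75), a call lost when WT replicate 1 or 2, or replicate 5 of Abcb10-null, was left out (adjusted p 0.064 to 0.0809). Of the polyamine genes 1 rose and 0 fell without WT replicates 1 and 2.

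Of 24 tested amino acid transporters 6 rose (25%) and 4 fell (16.7%), against 14.9% and 16.9% of all genes, with a median log2 fold change of 0.082. Slc7a11, the cystine importer, was at 28.5, 25.4, 34.3, 33.8 and 26.3 CPM in WT against 345, 35.97, 271, 348 and 68.1 CPM in Abcb10-null (log2 fold change 2.74 ± 0.50, adjusted p = 0.00361). Abcb10-null replicate 2 exceeded the highest WT library by a small margin and replicate 5 by more, and the other 3 libraries were far above both. Its partner chain Slc3a2 (1.43), the neutral amino acid carrier Slc1a4 (1.71), Slc7a7 (1.06) and Slc38a2 (0.70) also rose. The mitochondrial glutamate carrier Slc25a22 (-1.78) and Slc38a10 (-0.67) fell, and under the GC offset the sign of Slc38a10 turned (0.041, adjusted p = 0.787). Of 21 cytosolic aminoacyl-tRNA synthetases, which load tRNAs, 13 rose and 0 fell (median 0.69), with 1 called and a median of 0.60 when WT replicates 1 and 2 were left out. Before DMSO 9 of the 21 were lower in Abcb10-null cells and 1 higher. Rars, the arginine enzyme, was at 165, 169.6, 207, 214 and 195 CPM in WT against 963, 253, 540.05, 824 and 388 CPM in Abcb10-null (log2 fold change 1.53 ± 0.28, adjusted p = 0.0037). Gars, the glycine enzyme, was at 279.9, 282, 286, 326 and 304 CPM in WT against 991, 411, 645, 828.5 and 376 CPM in Abcb10-null (log2 fold change 1.03 ± 0.23, adjusted p = 0.00657). Both separated the genotypes, as 6 of the 13 called cytosolic synthetases did. In Rars the highest Abcb10-null library, replicate 1, was well above the lowest, replicate 2. Of 17 mitochondrial synthetases 5 rose and 0 fell, with Ears2 at 0.79, a call lost when WT replicate 1 or 5, or replicate 1 or 4 of Abcb10-null, was left out (adjusted p 0.0527 to 0.0741). Among 17 genes of eIF2 and its kinases, phosphatases and related brakes 6 rose and 3 fell: the brake on cap binding Eif4ebp1 (0.89) and the eIF2 subunit Eif2s2 (0.66) rose, and the kinases Eif2ak1 and Eif2ak3 (-0.42) and the brake Eif4ebp2 (-1.68) fell. Ppp1r15a, the inducible phosphatase subunit that reverses eIF2 phosphorylation, did not pass the test (0.88, adjusted p = 0.0833). With WT replicates 1 and 2 dropped, 2 transporters were higher and 1 lower, 0 mitochondrial synthetases were higher, and 0 eIF2 genes were higher and 1 lower. The mitochondrial synthetases called higher were 2 after dropping Abcb10-null replicate 1 or 4 or replicate 1 of WT, and 3 after dropping WT replicate 3, 4 or 5.

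Ribosome assembly factors were higher, and mitochondrial upkeep genes in part. Of 49 ribosome biogenesis factors 29 rose and 0 fell (median 0.52), and 5 were called without WT replicates 1 and 2 (median 0.49). Before DMSO 25 of the 49 were lower in Abcb10-null cells and 1 higher (median -0.18). Wdr12, a factor for the large subunit, was at 68.1, 66.9, 59.5, 73.4 and 58.98 CPM in WT against 178, 96.03, 122.7, 169 and 96.8 CPM in Abcb10-null (log2 fold change 0.91 ± 0.18, adjusted p = 0.00441), and Nip7 rose by 0.75 (adjusted p = 0.00489). Of 78 mitochondrial ribosomal proteins 20 rose and 0 fell (median 0.22), with 7 higher and 3 lower under the GC offset. Before DMSO 37 of these were lower in Abcb10-null cells and 2 higher. Both WT replicates 1 and 2 lay below the other 3 WT libraries in 59 of the 78, and without this pair 2 were called higher (median 0.13). The number was 9 when replicate 1 or 2 of WT, or replicate 1 or 4 of Abcb10-null, was left out. Mrpl19 was at 65.98, 64.2, 70.1, 82.6 and 76.3 CPM in WT against 143, 134, 125, 133 and 115 CPM in Abcb10-null (log2 fold change 0.75 ± 0.10, adjusted p = 0.000888), though 36% of its exonic length is overlapped by Gcfc2 on the other strand. Of 82 cytosolic ribosomal proteins 4 rose and 0 fell, below the 14.9% of all genes. Hspa9, the mitochondrial Hsp70, was at 435, 455, 491, 574 and 532 CPM in WT against 1896, 817, 1272, 1778 and 686 CPM in Abcb10-null (log2 fold change 1.27 ± 0.24, adjusted p = 0.0043). Its groups did not overlap, with replicates 2 and 5 the lowest Abcb10-null libraries. Hspa9 was among 4 of 12 mitochondrial chaperones and proteases that rose, with its cochaperone Dnaja3 (0.97), Hspd1 (0.66) and Trap1 (0.43). Respiratory chain genes showed little of this: 5 of 80 nuclear-encoded subunits rose and 0 fell, and 0 of 7 mitochondria-encoded transcripts were called. Cox6a2, a subunit form of striated muscle, was at 0.173, 0.0570, 0.400, 0.306 and 0.443 CPM in WT against 9.27, 0.563, 2.26, 6.69 and 1.20 CPM in Abcb10-null (log2 fold change 3.72 ± 0.75, adjusted p = 0.00508), and without Abcb10-null replicate 1, 3, 4 or 5 it no longer passed the count filter. Of 22 genes of the TCA cycle and pyruvate entry 4 rose (18.2%, near the 14.9% of all genes), led by Dld (0.74), and 1, Ogdh, fell (-0.90). When WT replicates 1 and 2 were left out 0 cytosolic ribosomal proteins, 1 mitochondrial chaperone or protease, 0 nuclear-encoded respiratory subunits and 0 TCA cycle genes rose, and 0 of any of these fell. The respiratory subunits called higher numbered 0 without Abcb10-null replicate 1 or 4, 1 without its replicate 3 or when WT replicate 1, 2 or 5 was dropped, and 2 without WT replicate 4.

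Interferon-stimulated genes formed another group that was higher in Abcb10-null cells, in all 5 libraries. Of 52 tested genes 34 rose and 1 fell (median 0.87), and without WT replicates 1 and 2 the counts were 22 and 1 (median 0.78). Trim30a, an interferon-induced ubiquitin ligase (ENSMUSG00000030921, chromosome 7, 104409025 to 104465193, minus strand), was at 5.01, 4.05, 5.93, 4.83 and 3.99 CPM in WT against 45.4, 34.1, 59.3, 49.1 and 42.04 CPM in Abcb10-null (log2 fold change 3.17 ± 0.18, adjusted p = 9.05e-07). Rsad2, the antiviral enzyme viperin (ENSMUSG00000020641, chromosome 12, 26442746 to 26456452, minus strand), was at 5.47, 5.70, 6.73, 4.65 and 5.38 CPM in WT against 30.02, 17.2, 52.2, 31.4 and 26.2 CPM in Abcb10-null (log2 fold change 2.38 ± 0.26, adjusted p = 0.000191). In both genes the lowest Abcb10-null library, replicate 2 included, exceeded the highest WT library. Usp18, which trims the ubiquitin-like protein Isg15, was at 2.25, 2.57, 2.27, 2.45 and 3.10 CPM in WT against 16.3, 3.12, 19.8, 17.9 and 8.60 CPM in Abcb10-null (log2 fold change 2.26 ± 0.40, adjusted p = 0.0032), its replicate 2 just above WT. Oas1g, an oligoadenylate synthetase, had 1 count in the 5 WT libraries together and 187 in the Abcb10-null libraries, a ratio of 173 with an exact 95% interval of 30.6 to 6861 that covers counting error only. Of 20 genes of MHC class I antigen presentation 9 rose and 0 fell, among them B2m, the light chain, at 56.1, 52.8, 90.7, 78.8 and 71.6 CPM in WT against 192, 145, 183, 182 and 149 CPM in Abcb10-null (log2 fold change 1.18 ± 0.14, adjusted p = 0.000439), and H2-D1 (0.74), with 5 higher when WT replicates 1 and 2 were left out.

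The interferon-stimulated response element (ISRE), searched as GAAA, a pair of any bases and GAAA, on both strands, was found in 22 of 39 tested interferon-stimulated genes with a window (56.4%), in 5.37% of genes called higher, 2.58% of those called lower, 3.53% of tested genes with a window and 3.44% of all windows. The members with the largest rises, a mean of at least 5 CPM and a match before the start were Trim30a (chr7:104465194-104465443, minus strand) and Rsad2 (chr12:26456453-26456702, minus strand), shown as above with the element in capitals, read on the opposite strand in both. It lies 36 to 27 bases before the start of Trim30a and 120 to 111 before that of Rsad2. The GATA motif (AGATAA) was in 8.84% and 9.02% of the genes called higher and lower, against 8% of tested genes, and the E2F motif (TTTGGCGC) in 1.02% and 0.882%, against 1.25%.
Trim30a: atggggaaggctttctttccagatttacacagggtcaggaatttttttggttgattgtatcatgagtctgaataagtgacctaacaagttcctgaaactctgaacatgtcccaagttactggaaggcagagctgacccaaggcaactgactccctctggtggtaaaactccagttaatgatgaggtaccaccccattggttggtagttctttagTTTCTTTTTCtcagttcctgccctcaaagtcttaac
Rsad2: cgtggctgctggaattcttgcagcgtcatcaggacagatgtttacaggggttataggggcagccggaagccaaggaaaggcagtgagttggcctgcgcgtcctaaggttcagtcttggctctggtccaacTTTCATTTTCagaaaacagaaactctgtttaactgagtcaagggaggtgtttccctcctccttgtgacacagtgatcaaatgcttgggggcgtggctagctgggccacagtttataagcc

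Histone and cell cycle genes moved in different directions. Of 64 replication-dependent histone genes 40 rose and 0 fell (median 0.77), although near-identical copies can share reads, and 7 were called without WT replicates 1 and 2 (median 0.62). Hist1h4j was at 145, 165, 234, 213 and 184 CPM in WT against 789, 286, 508, 666 and 483 CPM in Abcb10-null (log2 fold change 1.44 ± 0.22, adjusted p = 0.00198), all Abcb10-null libraries above all WT libraries. Such separation was seen in 5 of the 40 called, against 1088 of the 1944 genes called higher over all genes. Abcb10-null replicate 2 exceeded every WT library in 9 of the 64 histone genes. Before DMSO these genes were lower in Abcb10-null cells, 41 of 62 called lower and 1 higher. Histone transcripts mostly lack a poly(A) tail and are counted here because the libraries were made from total RNA. Of 46 genes of DNA replication and nucleotide supply 4 rose and 7 fell, close to or below the background, with Fen1, the flap endonuclease, at -0.66 (adjusted p = 0.00824), 78.8% of whose exonic length lies opposite Gm10143. Of 34 genes of mitosis and cytokinesis 10 fell and 1 rose, among them the mitotic regulators Foxm1 (-1.79) and Plk1 (-1.58) and the midzone kinesin Kif23, at 135, 132, 137, 137 and 156 CPM in WT against 95.3, 119, 96.8, 67.7 and 122 CPM in Abcb10-null (log2 fold change -0.58 ± 0.15, adjusted p = 0.0121). The 10 mitotic genes became 0 without WT replicates 1 and 2, 5 after dropping Abcb10-null replicate 3 or one of that pair, 6 without WT replicate 5, and 4 when Abcb10-null replicate 1 or 4 was left out. The replication genes called became 0 without the pair of WT libraries, and ranged from 2 to 11 higher and 2 to 10 lower over single libraries left out, the highest counts coming without Abcb10-null replicate 2. Of 20 G1 cyclins and cell cycle inhibitors 1, the antiproliferative gene Btg1, rose (1.20, adjusted p = 0.0026) and 2 fell, the inhibitors Cdkn1a (-0.93) and Cdkn2c (-0.72), with 1 in each direction without the pair. The shares of this list, 5% higher and 10% lower, were below those of all genes (14.9% and 16.9%).

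Endoplasmic reticulum (ER) chaperones and unfolded protein response genes did not rise as a group, 3 of 23 being higher and 5 lower. Hspa5, the main ER chaperone (-0.42), Calr (-0.77), Ern1, the sensor Ire1 (-1.36), and Syvn1 (-1.65) fell, and Herpud1 (1.64) and Ero1lb (0.69) rose. Of 27 glycolysis and glucose uptake genes 6 fell (22.2%, near the 16.9% of all genes) and 1 rose, with 2 and 0 under the GC offset and 1 and 0 without WT replicates 1 and 2. Without Abcb10-null replicate 2 10 fell, and without replicate 3 the number was 3. Gpi1, glucose-6-phosphate isomerase, was at 310.3, 306, 319.7, 334 and 498 CPM in WT against 189, 290.1, 146, 175 and 261 CPM in Abcb10-null (log2 fold change -0.83 ± 0.20, adjusted p = 0.00931). Pfkl, the liver form of phosphofructokinase, was at -0.92 (adjusted p = 0.0192) and not called without Abcb10-null replicate 3 (adjusted p = 0.0505) or under the GC offset (-0.45, adjusted p = 0.138). Of 32 sterol and fatty acid synthesis genes 9 fell, among them Fasn (-1.85), and 3, Msmo1 (0.80), Sc5d (0.71) and Cyp51 (0.49), rose. Under the GC offset 3 fell and 2 rose, and without WT replicates 1 and 2 0 fell and 1 rose. The number that fell was 2 after dropping Abcb10-null replicate 1 or either of these WT libraries, 3 after dropping Abcb10-null replicate 4, and 5 after dropping its replicate 3 or replicate 4 of WT. Of 27 autophagy genes 5 fell (18.5%, near the 16.9% of all genes), with the initiating kinase Ulk1 at -1.70 and the protease Atg4d at -0.83 (-0.15 and not called under the offset), and 3 rose. Of 29 glutathione and antioxidant genes 2 rose (6.90%) and 5 fell (17.2%), against 14.9% and 16.9% of all genes. Of 18 Bcl2 family and caspase genes 5 rose (27.8%) and 1 fell (5.56%), against 14.9% and 16.9% of all genes. The list's median was 0.0049, with 9 members above 0 and 9 below, and 2 of the 5 rises were without overlap. Before DMSO 8 of the 18 were higher in Abcb10-null cells and 1 lower. The death-promoting BH3 genes Pmaip1 (1.09), Bbc3 (0.93), Bik (0.72) and Bid (0.58) rose, and Bcl2l1, which encodes the survival protein Bcl-xL of maturing red cells, fell (-1.31, adjusted p = 0.0223). The genes called without WT replicates 1 and 2 were 0 higher and 1 lower for the ER list, 0 and 2 for autophagy, 0 and 1 for the antioxidant list, and 0 and 0 for the Bcl2 family and caspases. Single libraries left out gave 4 to 9 lower ER genes, 4 to 8 lower autophagy genes, 2 to 5 lower antioxidant genes and 3 to 5 higher Bcl2 family and caspase genes, the largest ER and autophagy counts coming without Abcb10-null replicate 2.

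The largest single differences came from genes outside these groups as well. Ccr1l1, a chemokine receptor-like gene, had 2 counts in the 5 WT libraries together and 1104 in the Abcb10-null libraries, at 8.42, 16.8, 8.78, 9.69 and 15.99 CPM, a ratio of 510.1 with an exact 95% interval of 141 to 4217 that covers counting error only. Gpm6b, a membrane glycoprotein best known from the nervous system, was at 16.2, 17, 16.6, 14.8 and 16.1 CPM in WT against 1.19, 1.53, 1.02, 0.982 and 1.09 CPM in Abcb10-null (log2 fold change -3.89 ± 0.20, adjusted p = 3.86e-07). Both differences were also present before DMSO (fitted log2 fold changes 8.61 and -3.71). Fcgr1, a high-affinity immunoglobulin receptor of myeloid cells, rose from 1.67, 2.45, 1.47, 2.75 and 2.11 CPM to 53.96, 4.55, 26.2, 51.3 and 10.6 CPM (log2 fold change 3.69 ± 0.57, adjusted p = 0.00198), with replicates 2 and 5 the lowest as for the stress genes, and was lower at day 0 (-0.68). The immune receptor Ly9 (2.67), the actin-binding Palld (2.61), M1ap (2.27), Arl14ep (2.12), the tRNA enzyme gene Dus4l (2.11) and the mitochondrial gene Mpv17l (2.01) completed the 12 largest rises (mean of at least 5 CPM, no overlap) with Trim30a, Slc7a11, Rsad2 and Usp18.

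The 12 largest falls, Gpm6b among them, were of genes with long transcripts. Their transcripts ranged from 4001 to 19823 bases, with a median GC content of 59.7%, and in the 11 other than Gpm6b both WT replicates 1 and 2 exceeded the other WT libraries. Kmt2d, a histone H3 methyltransferase, was at 232, 229, 65.6, 83.6 and 91.1 CPM in WT against 14.1, 51.3, 10.4, 9.999 and 18.96 CPM in Abcb10-null (log2 fold change -2.87 ± 0.52, adjusted p = 0.0035). Inf2, a formin, was at 209.6, 202, 64.9, 64.8 and 76.1 CPM in WT against 7.45, 34.2, 9.96, 7.30 and 15.9 CPM in Abcb10-null (log2 fold change -3.17 ± 0.52, adjusted p = 0.0026). The groups did not overlap in either gene, and Abcb10-null replicate 2 was nearest to WT in both. Prr12 (-3.75), Tnrc18 (-3.48), the methyltransferase Setd1b (-3.12), the calcium channel gene Cacna1g (-3.12), Ttyh3 (-2.99), Map1a (-2.96), Crtc1 (-2.75) and Prrc2a (-2.73) were among the others. Over the 12 the median log2 fold change was -3.06, -2.25 without WT replicates 1 and 2 and -1.93 under the GC offset. All 12 were called under the offset and 9 without the pair of WT libraries, Map1a and Prrc2a being among the exceptions.

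**Figure D4:**
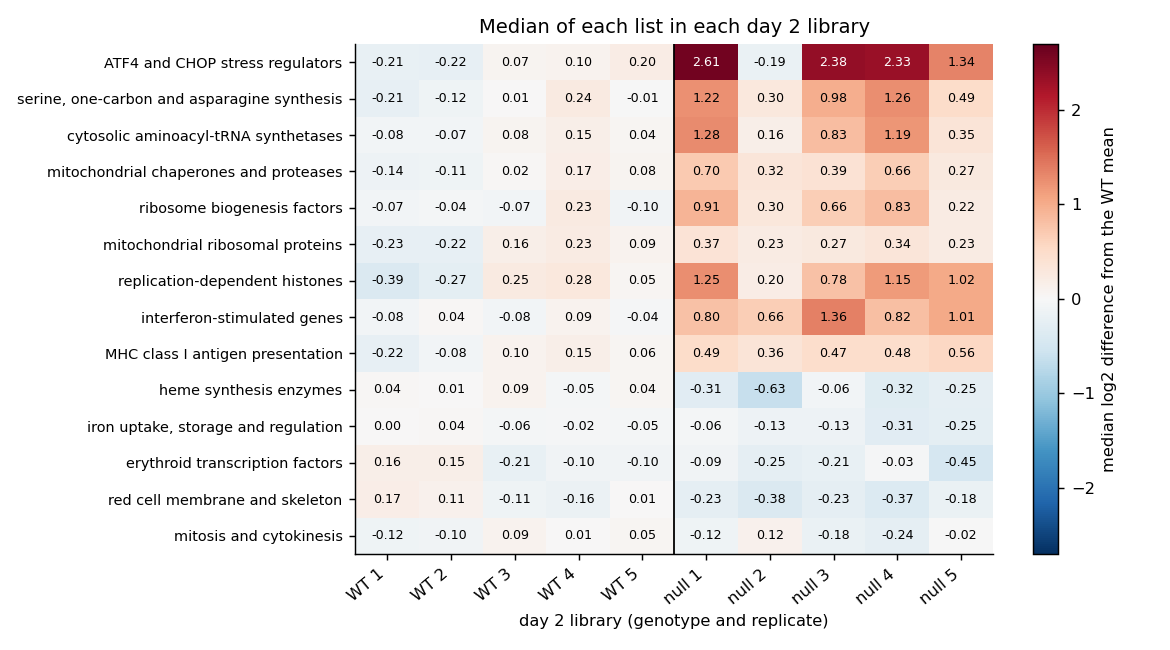
Each cell gives the median, over the tested members of a list, of the log2 difference between a day 2 library and the mean of the 5 WT libraries, red above and blue below. The stress regulators read 2.61, -0.19, 2.38, 2.33 and 1.34 in Abcb10-null replicates 1 to 5, whereas the interferon-stimulated genes read 0.66 to 1.36 in all 5.

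The day 2 differences were set beside those before DMSO, in libraries that the day 2 test did not use but from the same clone. At day 0 2550 of 12912 tested genes (19.7%) were higher and 2092 (16.2%) lower in Abcb10-null cells. Of the genes higher at day 2, 797 were also higher at day 0 (41% of the day 2 genes and 31.3% of the day 0 genes), and 192 had been lower. Of those lower at day 2, 403 were also lower at day 0 (18.3% and 19.3%), and 116 had been higher. In a test of the change itself, 3188 of 13980 genes (22.8%) had a genotype difference that changed from day 0 to day 2, and without WT day 2 replicates 1 and 2 the number was 1791. Interferon-stimulated genes were already higher before DMSO, 54 of 56 (median 2.51), and for Trim30a, Rsad2 and Usp18 the difference shrank by day 2 (changes of -1.76, -2.45 and -1.80, adjusted p = 1.9e-05, 4.27e-06 and 0.00509). Rsad2 stood at 142 ± 5.98 CPM in Abcb10-null cells at day 0 and 31.4 ± 12.9 CPM at day 2, while WT held 4.77 ± 0.411 and 5.59 ± 0.752 CPM. Genes of MHC class I antigen presentation were also mostly higher before DMSO, 17 of 20 being higher and 1 lower. Their median was 0.89 at day 0 against 0.41 at day 2.

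**Figure D5:**
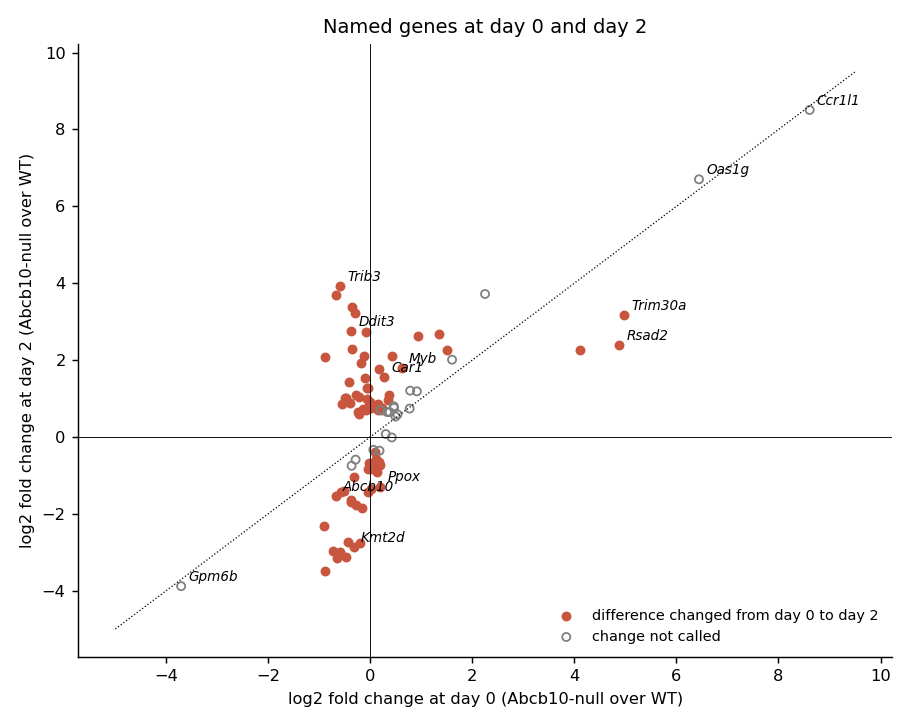
Log2 fold change of Abcb10-null over WT for the named genes given here and tested at both times, day 0 on the horizontal and day 2 on the vertical axis, filled where the change between days passed the test (adjusted p under 0.05), with the dotted line marking equal values. Ccr1l1 and Gpm6b lie on the line, Trib3 and Ddit3 lie far above it near -0.60 and -0.38 at day 0, and Trim30a and Rsad2 lie below it.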

How the data were processed

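Total RNA from MEL cells was sequenced after the authors removed ribosomal and globin RNA and made stranded libraries. Per the study's methods and the labels, the authors trimmed adapters with cutadapt, aligned the reads with STAR 2.6.1b to GRCm38 (Ensembl annotation) and assigned them to genes with featureCounts 1.6.3, and the deposited values are these raw counts for 54532 genes, neither normalized nor filtered. The strand and multimapping settings of the counting are not given in the sources used here, so reads of overlapping genes and of near-identical copies may have been shared. Total counts of the 10 libraries were 13829992 to 19616273, and some genes are not reported here.

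Genotype, day and replicate number came from the labels. Genes were tested with R 4.3.3 and the quasi-likelihood F test of edgeR 4.0.16 (TMM, filterByExpr, Benjamini-Hochberg adjusted p under 0.05 over all genes tested), on the 10 libraries of day 2, on the 10 of day 0, and for the interaction of genotype and day on these 20. Standard errors are the log2 fold change divided by the root of F, levels are CPM with TMM over all 30 libraries, and errors after ± beside levels are SDs of 5 libraries. Fitted log2 fold changes of genes with few WT reads depend on the prior count. The members, the 41 gene lists and the alternatives were chosen with earlier results of these data known. Named were Abcb10, each tested heme synthesis enzyme and stress regulator, the 2 genes with the smallest p in each direction of each other pathway list (adjusted p under 0.05, absolute log2 fold change of at least 0.58, no overlap between genotypes), and the 12 largest rises and falls with a mean of at least 5 CPM and no overlap. Other list members are named as examples of those called, or as known genes of the list that were not, and were chosen after their values were seen.

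Alternatives were DESeq2 1.42.0, its size factors in edgeR, other count filters (at least 1 count in all, at least 10 in every library), all 30 libraries in one fit, removal of mitochondria-encoded, globin and small RNA genes, the replicate number as a block, a log2 fold change limit of 0.58, and leaving out each library. Chosen after seeing the data were leaving out WT replicates 1 and 2 and an offset per library from a loess fit (span 0.3) of its log2 CPM deviations on GC content and transcript length, which also removes any genotype difference that follows these properties. Same-numbered libraries of the genotypes had deviation correlations of -0.086, 0.20, -0.12, 0.19 and 0.29, and the labels name nothing that a number shares, and the reported fit has no block. On simulated counts with 100 genes changed by 1 and 100 by 2 on the log2 scale, the day 2 test recovered 58 and 88 and called 6 of 12626 unchanged genes. All simulated libraries were drawn gene by gene from the means and spread of the WT day 2 libraries. The simulation therefore does not cover the spread of the Abcb10-null libraries or shifts shared by many genes, and cannot show how many reported calls are false. Promoter windows came from RefSeq (GRCm38.p6), and gene coordinates and exon overlaps from the GENCODE annotation of GRCm38.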

Additional observations from a re-analysis of the deposited data

Results flagged for a closer look

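In 9 of 200 groups of 5 libraries (the 100 named genes in each genotype) the highest library stood further from the rest than Dixon's 95% critical value (0.710) allows, where chance flags about 1 in 20. Abcb10 was at 320.2 CPM in Abcb10-null replicate 3 and 169 to 191 CPM in the other 4. Abcb10-null replicate 2 was the highest of its group for Kmt2d (51.3 CPM), Prrc2a (35.8 CPM) and Syvn1 (11.5 CPM). WT replicate 5 was the highest for Gpi1 (498 CPM), Kif23 (156 CPM) and Ero1lb (17.7 CPM). WT replicate 1 alone had reads of Ccr1l1 (0.115 CPM) and Oas1g (0.0576 CPM).

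For 79 of the 100 named genes the genotype difference itself changed from day 0 to day 2 (edgeR interaction, adjusted p under 0.05), against 22.8% of all tested genes, and the values are log2 fold changes at day 2 minus those at day 0. The 43 that went up were Trib3 by 4.55, Fcgr1 by 4.42, Atf3 by 3.80, Chac1 by 3.57, Ddit3 by 3.18, Gdf15 by 3.04, Slc7a11 by 2.87, Nupr1 by 2.71, Dus4l by 2.27, Jdp2 by 2.14, Hist1h4j by 1.91, Arl14ep by 1.74, Palld by 1.74, Rars by 1.68, Cebpg by 1.66, Sesn2 by 1.57, Atf4 by 1.52, Hist1h4h by 1.46, Cebpb by 1.43, Hspa9 by 1.38, Ly9 by 1.37, Psph by 1.36, Eif4ebp1 by 1.32, Car1 by 1.31, Gars by 1.29, Myb by 1.22, Dnaja3 by 1.09, Wdr12 by 0.97, Eif2s2 by 0.94, Dld by 0.93, Atf5 by 0.87, Ears2 by 0.86, Mrpl15 by 0.84, M1ap by 0.82, Pmaip1 by 0.78, Nip7 by 0.78, Azin1 by 0.75, Mtap by 0.73, Slc25a32 by 0.68, Ero1lb by 0.60, Mrpl19 by 0.58, Acy1 by 0.56 and Sc5d by 0.54. The 36 that went down were Cacna1g at -3.24, Prr12 at -2.93, Setd1b at -2.58, Tnrc18 at -2.52, Crtc1 at -2.48, Kmt2d at -2.46, Rsad2 at -2.45, Inf2 at -2.44, Ttyh3 at -2.33, Prrc2a at -2.21, Map1a at -2.17, Usp18 at -1.80, Trim30a at -1.76, Ranbp10 at -1.62, Ppox at -1.45, Slc25a22 at -1.44, Ank1 at -1.34, Socs3 at -1.34, Ern1 at -1.31, Ulk1 at -1.26, Syvn1 at -1.21, Pfkl at -0.99, Tmcc2 at -0.92, Cdkn2c at -0.87, E2f4 at -0.82, P4ha1 at -0.81, Abcb10 at -0.80, Gpi1 at -0.80, Kel at -0.79, Klf1 at -0.79, Fen1 at -0.77, Atg4d at -0.73, Eif2ak1 at -0.67, Kif23 at -0.65, Slc38a10 at -0.59 and Fech at -0.43. The named genes were chosen on their day 2 difference, which the test shares, so their number is a description.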

How the results depend on the processing

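The 1944 higher and 2207 lower genes became 2278 and 2511 with DESeq2, 1992 and 2189 with its size factors, 2011 and 2684 when 1 count was enough for a gene to be tested, and 1808 and 1821 with at least 10 counts in every library. The number higher rose to 3200 with all 30 libraries in one fit, and it fell to 1199 with the fold change limit and to 359 without WT replicates 1 and 2, where 379 were lower. The number of differences that changed from day 0 went from 3188 to 1791 without these 2 libraries, and day 0 calls from 4642 to 1584 with all 30 libraries in one fit. The cause was not tested, except that leaving out libraries leaves fewer samples. Leaving out single libraries gave 1158 to 2578 higher and 1426 to 2779 lower genes, the largest counts in both directions coming without Abcb10-null replicate 2, and the number of changed differences ran from 2366 to 4760. Abcb10 kept its direction and its call in each alternative run, at -1.74 to -1.46 over the fits that left out 1 library, -1.21 with the GC offset and -1.37 without WT replicates 1 and 2.

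Of the 103 genes that the naming rule chose, 96 were called at day 2. Of these 96, 59 were called without WT replicates 1 and 2, 91 with the GC offset, and 88 in all 10 fits that left out 1 library. Calls were lost under the offset by Eif2s2 (adjusted p = 0.0505), Smox (adjusted p = 0.0508), Slc38a10, Pfkl and Atg4d, and gained by Cpox, Atf5, Ddit4 and Sesn2. DESeq2 added calls of Alad, Atf5, Ddit4 and Sesn2. Signs turned for Alas1, Uros and Slc38a10. The day 2 log2 fold change of Alas1 went from -0.017 to 0.013 when 1 count was enough, 0.037 with all 30 libraries, 0.020 without mitochondria-encoded, globin and small RNA genes, 0.19 without WT replicates 1 and 2, 0.18 with the offset, 0.19 with offset and block, and 0.028, 0.096 and 0.034 without WT replicate 1, WT replicate 2 and Abcb10-null replicate 2, its range over single libraries left out being -0.12 to 0.096. Uros went from 0.072 to -0.10 with the offset, -0.16 with offset and block, and -0.031, -0.00657 and -0.016 without Abcb10-null replicates 1, 3 and 4, the highest value of this kind being 0.24. Slc38a10 went from -0.67 to 0.041 with the offset and 0.047 with offset and block, and its change from day 0 from -0.59 to 0.036 with the offset.

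With the replicate number as a block, 1682 genes were higher and 2273 lower, and with offset and block 1682 and 1849. The block changed the sign of Alas1 (0.013) and Uros (-0.00117) and lost the calls of Urod (adjusted p = 0.0591), Cebpb (adjusted p = 0.0562) and Gdf15 (adjusted p = 0.0668), and Alad (adjusted p = 0.049) and Ddit4 (adjusted p = 0.031) gained calls. Among WT replicates 1 to 5 the Abcb10-null library whose deviations correlated best carried the numbers 2, 2, 1, 4 and 5. The list of mitochondria-encoded transcripts has no value without these genes, and depth limits genes with few reads, such as Cox6a2, Oas1g and Ccr1l1.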

Other observations

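Levels at day 5 in DMSO, in 5 libraries of each genotype that entered the comparisons above only where all 30 libraries were fitted together, are given as values for genes that differed at day 2, with no test. Ppox was at 102 ± 21.02 CPM in WT against 65.1 ± 24.6 CPM in Abcb10-null libraries (SD, n = 5). Klf1 was at 422 ± 58.9 CPM in WT against 146 ± 19.5 CPM in Abcb10-null, and Myb at 8.63 ± 3.75 CPM in WT against 36.9 ± 11.6 CPM in Abcb10-null. Trib3 was at 104 ± 178 CPM in WT against 843 ± 153 CPM in Abcb10-null, and Chac1 at 4.82 ± 7.32 CPM in WT against 91.4 ± 23.2 CPM in Abcb10-null, the SD exceeding the mean in WT for both. Rsad2 was at 14.3 ± 5.22 CPM in WT against 24.3 ± 8.34 CPM in Abcb10-null, and Hist1h4j at 97.6 ± 26.2 CPM in WT against 244 ± 91.7 CPM in Abcb10-null.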
